A study of Homo sapiens with 6 samples.

Results

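The mitochondrial ribosomal proteins were followed in 786-O cells after knockdown of NFE2L3. The members were the genes whose symbol starts with MRPL or MRPS, is followed by a number and may end in A, B or C. They made up 78 of the 56303 annotated genes, 49 with a large-subunit name (MRPL) and 29 with a small-subunit name (MRPS), and lay on 21 chromosomes. 786-O, a cell line established from a clear cell renal cell carcinoma, lacks functional VHL, the protein that marks hypoxia-inducible factors for destruction. RNA-seq was done on 3 libraries of 786-O cells given an siRNA against NFE2L3 (siNFE2L3), labelled 48 h, and on 3 libraries of 786-O cells given a control siRNA (siControl), labelled 0 h. NFE2L3 encodes a CNC-family bZIP transcription factor related to NRF2. Time and siRNA cannot be told apart, the siRNA used was not given in the sources used here, and cells of 1 line were used throughout. The labels did not say that replicates were separate cultures, so the spread that the p-values measure may be no more than technical. The genotype label of siNFE2L3 replicates 2 and 3 names NFE2L4 and NFE2L5 with running numbers, while their title and source name give NFE2L3.

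The mitochondrial ribosome translates the mRNAs of the mitochondrial genome, which encode core subunits of the respiratory chain and of ATP synthase. Its RNAs come from the mitochondrial genome, whereas its proteins are encoded in the nucleus, made in the cytosol and imported. The small subunit binds the mRNA and reads the codons, and the large subunit joins amino acids and releases the chain beside the inner membrane. Some of the proteins have homologues in bacterial ribosomes and others are found only in mitochondria.

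NFE2L3 was counted 1087, 1075 and 1068 times in the siNFE2L3 libraries, against 6171, 6508 and 6403 times in the siControl libraries. Its log2 fold change was -2.54 ± 0.0482 (SE, n = 3 each), with an exact two-sided permutation p of 0.1, the smallest that 3 against 3 allows. Total counts ranged from 51828446 to 56806368 in siNFE2L3 libraries and from 53051297 to 57391929 in siControl libraries. Between 3.998% and 4.386% of counts came from the mitochondrial genome. All 10 renal carcinoma line markers were detected. The summed markers of leukocytes, endothelium, erythroid cells and fibroblasts reached at most 0.573, 0.716, 0.0358 and 4.11 CPM in any library, and 3 of 4 erythroid markers were at 0 in all 6. CPM is the count of a gene per 1e6 counts of its library, after scaling for composition.

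All 78 members passed the filter on low counts. In single libraries they were counted between 91 and 10556 times. After knockdown 24 members fell, 2 rose and 52 did not pass the test, at an adjusted p under 0.05 by edgeR's quasi-likelihood test with Benjamini-Hochberg adjustment over 19916 genes. This was 30.8% of the members lower and 2.56% higher, whereas over all tested genes 14.0% were lower and 12.7% were higher. Of the 12808 tested genes within the CPM range of the members, 18.8% fell and 15.6% rose. Fewer cells of a type and less RNA per cell cannot be told apart in such bulk libraries. The CPM ranges of the groups did not overlap for 36 members, 33 lower and 3 higher in siNFE2L3, beside 20.4% of all tested genes lower and 19.1% higher. The changes were small. The 24 falls left between 66.8% and 91.2% of the siControl level, and no member reached the cutoffs that the study set for its own calls, a 2-fold change and an unadjusted p below 0.05, which 0.377% of all tested genes passed as lower and 0.723% as higher. At an unadjusted p under 0.05 alone, 34 of the 78 members passed. The same cutoff was passed by 7311 of the 19916 tested genes. Of the 12808 within the members' CPM range, 5803 passed it. The median log2 fold change was -0.11 over the members and -0.00066 over all tested genes, with 60 members below 0 and 18 above.

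**Figure D1:**
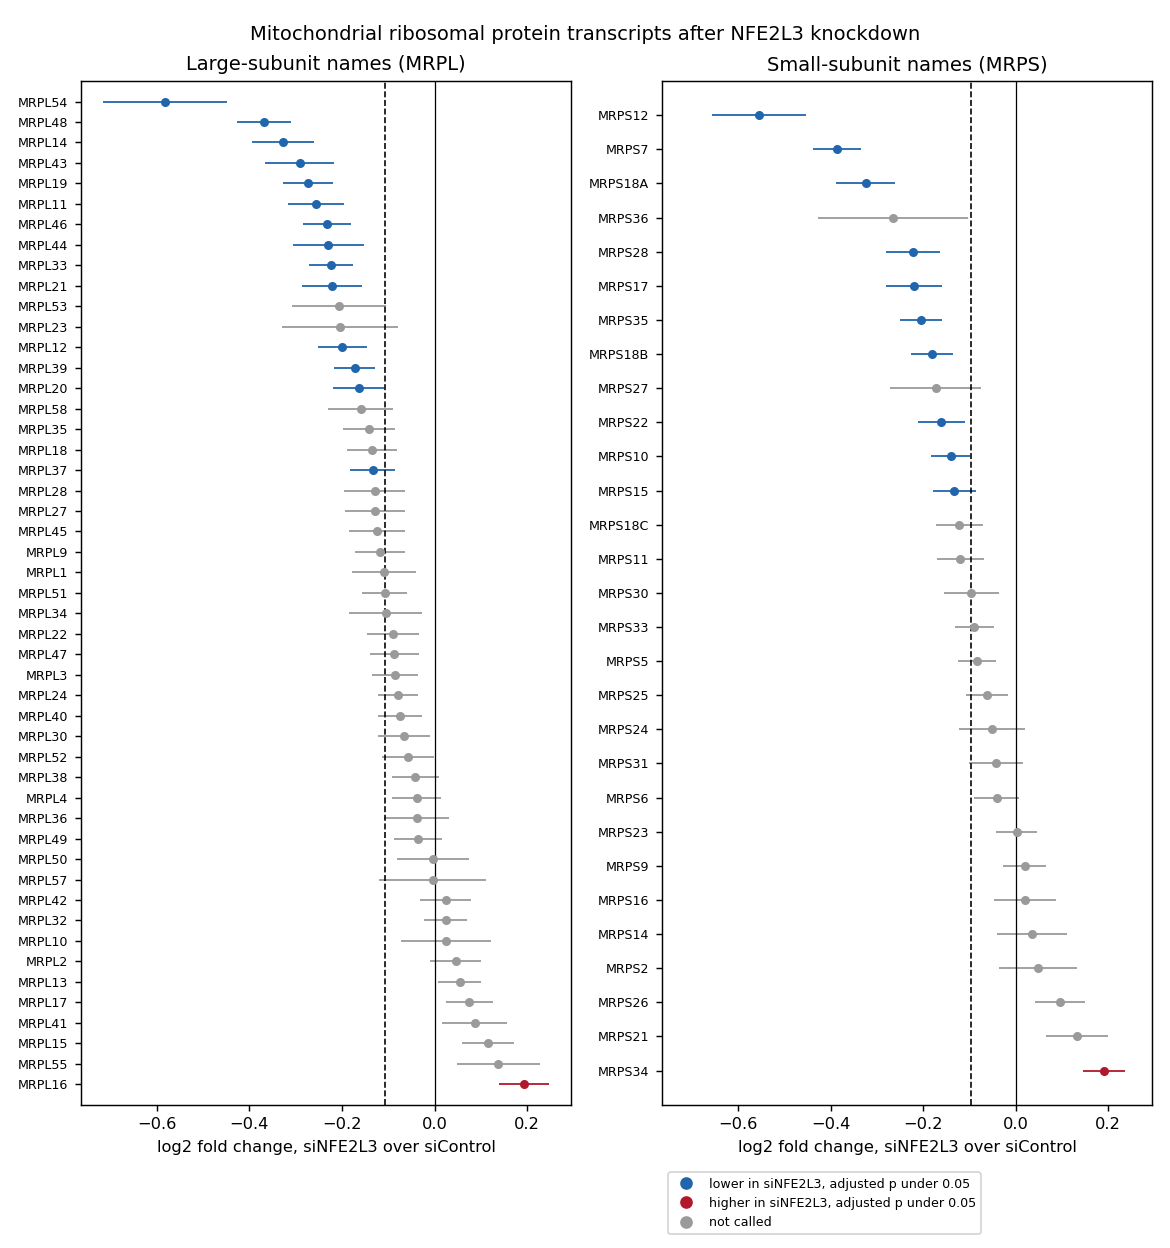
Log2 fold change of siNFE2L3 over siControl for each of the 49 MRPL members (left) and 29 MRPS members (right), ordered by value, with bars for the standard error and dashed lines at the medians. Blue points fell, red points rose and grey points did not pass the test at an adjusted p under 0.05. The values run from -0.58 to 0.19 on the left and from -0.55 to 0.19 on the right.

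To show what lies at the start of the genes that the results turn on, the RefSeq promoter windows of MRPL54, MRPS12 and MRPS7, which fell most, and of MRPS34 and MRPL16, which rose, are printed 5′ to 3′ on the strand of the gene. Each window holds 300 bases of the build GRCh38.p14, with the RefSeq start site after base 250. They are chr19:3762432-3762731 (+) for MRPL54, chr19:38930694-38930993 (+) for MRPS12, chr17:75261629-75261928 (+) for MRPS7, chr16:1773085-1773384 (-) for MRPS34 and chr11:59810729-59811028 (-) for MRPL16. Capitals mark matches, on either strand, to CCGGAAG, a core that ETS factors such as GABP bind, and to AAGATGG, a core that YY1 binds. Both factors are known for their part in nuclear genes for mitochondria.
MRPL54: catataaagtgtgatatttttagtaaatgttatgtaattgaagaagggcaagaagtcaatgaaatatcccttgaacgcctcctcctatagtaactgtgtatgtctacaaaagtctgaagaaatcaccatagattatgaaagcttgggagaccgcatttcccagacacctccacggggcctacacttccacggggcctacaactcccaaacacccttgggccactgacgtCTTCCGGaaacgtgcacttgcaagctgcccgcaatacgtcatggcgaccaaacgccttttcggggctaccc
MRPS12: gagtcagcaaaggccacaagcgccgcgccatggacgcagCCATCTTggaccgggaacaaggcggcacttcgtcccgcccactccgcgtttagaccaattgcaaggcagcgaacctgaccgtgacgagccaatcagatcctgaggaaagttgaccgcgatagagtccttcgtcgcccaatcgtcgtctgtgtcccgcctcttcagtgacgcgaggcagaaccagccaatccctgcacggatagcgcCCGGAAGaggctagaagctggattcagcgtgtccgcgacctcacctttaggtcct
MRPS7: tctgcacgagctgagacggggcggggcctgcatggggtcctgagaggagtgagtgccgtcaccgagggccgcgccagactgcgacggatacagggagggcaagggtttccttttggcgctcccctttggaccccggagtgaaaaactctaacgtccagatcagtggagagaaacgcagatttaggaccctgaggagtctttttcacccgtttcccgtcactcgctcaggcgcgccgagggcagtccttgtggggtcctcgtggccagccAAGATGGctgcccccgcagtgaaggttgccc
MRPS34: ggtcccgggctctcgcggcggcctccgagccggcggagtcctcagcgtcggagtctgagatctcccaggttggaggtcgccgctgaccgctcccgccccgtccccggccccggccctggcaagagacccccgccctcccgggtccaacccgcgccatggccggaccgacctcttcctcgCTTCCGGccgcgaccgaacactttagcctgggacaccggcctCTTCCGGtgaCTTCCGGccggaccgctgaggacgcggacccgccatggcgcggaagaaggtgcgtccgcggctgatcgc
MRPL16: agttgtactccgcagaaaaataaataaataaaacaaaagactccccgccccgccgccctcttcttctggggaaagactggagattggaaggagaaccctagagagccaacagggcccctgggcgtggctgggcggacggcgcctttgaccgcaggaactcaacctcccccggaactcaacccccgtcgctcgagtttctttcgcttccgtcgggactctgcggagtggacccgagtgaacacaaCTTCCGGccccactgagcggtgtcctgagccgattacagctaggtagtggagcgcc

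The ETS core stood in 4 of these 5 windows, at bases 230 to 236 in MRPL54, 246 to 252 in MRPS12 and 245 to 251 in MRPL16. MRPS34 held it 3 times, at bases 180 to 186, 222 to 228 and 232 to 238. The YY1 core stood at bases 40 to 46 in MRPS12 and at 270 to 276 in MRPS7, past its RefSeq start site. The ETS core thus stood at genes that rose and at genes that fell. RefSeq start sites can differ from the annotated starts of the counted genes, which were used for loci and neighbour distances. For MRPS12 the annotated start, 38930548, lies before the first base of the window.

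A RefSeq window was matched by symbol for 69 of the 78 members; MRPL2, MRPL10, MRPL13, MRPL15, MRPL21, MRPL23, MRPL35, MRPS28 and MRPS36 were not matched. The letters CCGGAAG were found on either strand in 29 member windows, 42.0%, beside 10.7% of all 27305 windows and 17.9% of the 11161 windows of tested genes. AAGATGG was found in 23 member windows, 33.3%, beside 6.06% of all windows and 7.33% of those of tested genes. The NRF1 core GCATGCGC was found in 6 member windows, 8.70%, beside 3.27% and 5.24%. The antioxidant response element letters TGACNNNGC, where N is any base, were found in 8, 11.6%, beside 13.6% and 15.03%. The letters GTCACNCT, from the motif that the study names for NFE2L3, were found in 1 member window, that of MRPS23, 1.45%, beside 3.49% and 3.40%. A window can hold several of these motifs, and a match is a match of letters only. Members with the ETS core had a median log2 fold change of -0.11, with 9 lower and 2 higher of 29, and members without it had -0.10, with 13 lower of 40. Members with the YY1 core had -0.096, with 8 lower of 23, and those without it had -0.11, with 14 lower and 2 higher of 46. For these counts of members past the test, the shares over all tested genes were 14.0% lower and 12.7% higher. Among genes within the members' CPM range they were 18.8% and 15.6%.

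MRPL54 had the lowest log2 fold change of the members. It encodes a mitochondria-specific protein at the base of the stalk of the large subunit, where translation factors bind, and lies at chr19:3762664-3768575 (GRCh38). It had 2.738, 2.491 and 2.998 CPM in the siNFE2L3 libraries, against 3.374, 4.445 and 4.467 CPM in the siControl libraries. The groups did not overlap, and siControl replicate 1 lay nearest to the knockdown values. The log2 fold change was -0.58 ± 0.134 (SE), with an adjusted p of 0.00181 by edgeR's quasi-likelihood test. With 140 to 154 counts in siNFE2L3 libraries and 179 to 257 in siControl libraries, MRPL54 was among the members with the fewest counts.

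Other stalk members had smaller values. MRPL11, homologous to the bacterial protein at the base of the stalk, had 24.4, 25.3 and 25.2 CPM in siNFE2L3 libraries, against 27.3, 32.7 and 29.3 CPM in siControl libraries. It fell by 0.26 on the log2 scale (SE 0.0610, adjusted p 0.00253 by edgeR's quasi-likelihood test). MRPL11 shares 119 of its 2539 exon bases with PELI3 on the opposite strand. MRPL12, homologous to the bacterial stalk protein that recruits translational GTPases, fell by 0.20 (adjusted p 0.00678 by the same edgeR test). It shares 701 of its 1028 exon bases with the gene RP13-1032I1.10 on the same strand, so that its count is uncertain. MRPL53 had a log2 fold change of -0.21 and MRPL10 one of 0.03, and neither passed the test. Of the 5 stalk members, 3 fell (60.0%), beside 14.0% of all tested genes and 18.8% of those within the members' CPM range.

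Among the other large-subunit members, MRPL48, a protein of the central protuberance, had 29.3, 28.6 and 33.8 CPM in siNFE2L3 libraries, against 40.3, 38.3 and 39.5 CPM in siControl libraries. The log2 fold change was -0.37 ± 0.0579 (SE), with an adjusted p of 2.70e-05 by edgeR's quasi-likelihood test. MRPL14, the homologue of a bacterial protein on the face that meets the small subunit, had 16.7, 19.6 and 16.6 CPM in siNFE2L3 libraries, against 21.1, 23.2 and 22.2 CPM in siControl libraries. Every siControl value of both genes lay above every siNFE2L3 value. MRPL14 fell by 0.33 on the log2 scale (SE 0.0673, adjusted p 6.00e-04 by the same edgeR test). Neither gene shares exon bases with another annotated gene.

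MRPL43, a mitochondria-specific protein, had 12.4, 11.0 and 11.8 CPM in siNFE2L3 libraries, against 13.6, 14.0 and 15.4 CPM in siControl libraries, and fell by 0.29 on the log2 scale (adjusted p 0.00411, edgeR). MRPL19, the homologue of a bacterial protein at the contact of the subunits, had 33.8, 34.5 and 36.9 CPM in siNFE2L3 libraries, against 39.5, 45.1 and 42.6 CPM in siControl libraries, and fell by 0.27 (adjusted p 4.51e-04, edgeR). Both were separated between the groups. MRPL43 shares 1170 of 3573 exon bases with SEMA4G and 149 with C10orf2, the gene of the mitochondrial DNA helicase, and MRPL19 shares 132 of 4601 with GCFC2, all on the opposite strand. The strand setting of the counting was not given in the sources used here, so reads of such pairs could not be told apart.

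MRPL16 rose. It is the homologue of a bacterial protein near the peptidyl transferase centre, where the peptide bond is made. It had 27.4, 27.7 and 28.8 CPM in siNFE2L3 libraries, against 23.9, 24.0 and 25.5 CPM in siControl libraries. All knockdown values were above all control values, with a log2 fold change of 0.19 ± 0.0545 (SE) and an adjusted p of 0.00950 by edgeR's quasi-likelihood test. Without siNFE2L3 replicate 3 the log2 fold change was 0.17 and the adjusted p 0.0561. The other 3 members around that centre, MRPL2, MRPL3 and MRPL4, had log2 fold changes of 0.05, -0.09 and -0.04 and did not pass the test. Of the 6 members at the polypeptide exit tunnel, 0 passed it in edgeR, 0 in DESeq2 and 0 at an unadjusted p under 0.05. At that unadjusted cutoff 7311 of the 19916 tested genes passed. The exit tunnel values lay between -0.20 and 0.08, with 5 of the 6 below 0. Their median was -0.089, beside -0.11 over all members, and whether sites differ was not tested. MRPL55, whose values were also all higher in siNFE2L3 libraries, had 0.14 (adjusted p 0.275, edgeR) and did not pass the test. Of the 8 members of the central protuberance, 2 fell, MRPL48 and MRPL46. Over all tested genes 14.0% fell, and within the members' CPM range 18.8% fell.

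In the small subunit MRPS12 and MRPS7 fell most. MRPS12, the homologue of the bacterial protein at the decoding centre, lies at chr19:38930548-38933162 (GRCh38). It had 3.94, 4.27 and 3.93 CPM in siNFE2L3 libraries, against 5.77, 6.28 and 5.78 CPM in siControl libraries. The groups did not overlap, with a log2 fold change of -0.55 ± 0.102 (SE) and an adjusted p of 1.89e-04 by edgeR's quasi-likelihood test. MRPS12 shares 349 of its 2144 exon bases with SARS2 on the opposite strand. MRPS7, the homologue of an RNA-binding protein of the head, lies at chr17:75261674-75266373. It had 37.9, 37.5 and 35.2 CPM in siNFE2L3 libraries, against 44.8, 50.05 and 49.71 CPM in siControl libraries. Its log2 fold change was -0.39 ± 0.0523 (SE), and its adjusted p of 3.50e-06 by edgeR was the smallest of any member. MRPS7 shares 213 of its 3324 exon bases with GGA3 and 146 with MIF4GD, both on the opposite strand.

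The copies of bacterial S18, named MRPS18A, MRPS18B and MRPS18C, were measured apart. The protein of MRPS18A sits in the large subunit despite its name. MRPS18A had 36.6, 40.8 and 39.2 CPM in siNFE2L3 libraries, against 47.6, 43.53 and 54.97 CPM in siControl libraries, and fell by 0.32 on the log2 scale (SE 0.0639, adjusted p 4.08e-04, edgeR). MRPS18B had 58.4, 59.6 and 57.6 CPM in siNFE2L3 libraries, against 64.5, 64.9 and 69.8 CPM in siControl libraries, and fell by 0.18 (SE 0.0454, adjusted p 0.00381, edgeR). MRPS18C had 92.6, 98.6 and 95.3 CPM in siNFE2L3 libraries, against 96.3, 101.9 and 113.5 CPM in siControl libraries. The groups overlapped for MRPS18C alone, whose log2 fold change was -0.12 (SE 0.04998, adjusted p 0.0758, edgeR). MRPS18A shares 604 of 1284 exon bases with RSPH9 and MRPS18C shares 1956 of 4866 with FAM175A, both on the opposite strand. Whether the copies differ in their change was not tested.

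MRPS28, MRPS17 and MRPS35 also fell. MRPS28, of the body of the small subunit, had 21.1, 22.1 and 21.5 CPM in siNFE2L3 libraries, against 23.9, 24.6 and 26.8 CPM in siControl libraries. MRPS17, the homologue of a bacterial protein that binds the rRNA early in assembly, had 17.3 CPM in each of the siNFE2L3 libraries, against 19.1, 20.1 and 21.2 CPM in siControl libraries. MRPS35, a mitochondria-specific protein of the head, had 59.8, 63.0 and 61.3 CPM in siNFE2L3 libraries, against 70.9, 67.8 and 73.4 CPM in siControl libraries. In each of them every siNFE2L3 value was below every siControl value. The log2 fold changes were -0.22 for MRPS28, -0.22 for MRPS17 and -0.20 for MRPS35, with adjusted p of 0.00575, 0.00805 and 0.00127 by edgeR in that order. MRPS28 shares 650 of 1817 exon bases with RP11-26J3.4 on the same strand, which was counted higher, at 125.2 CPM over all libraries, so the count of MRPS28 is uncertain. MRPS17 shares 471 of 2159 with RP11-15K19.2 and 112 with GBAS, both on the same strand, so its count is also uncertain. Over all libraries RP11-15K19.2 had 19.1 CPM and GBAS 37.7 CPM, beside 18.7 CPM for MRPS17. MRPS35 shares none. Without siControl replicate 3 MRPS17 had an adjusted p of 0.0534 by edgeR.

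MRPS34 rose. It encodes a mitochondria-specific protein of the body of the small subunit and lies at chr16:1771890-1773155. It had 92.1, 88.5 and 90.5 CPM in siNFE2L3 libraries, against 74.2, 83.0 and 80.3 CPM in siControl libraries. All knockdown values lay above all control values, with a log2 fold change of 0.19 ± 0.0454 (SE) and an adjusted p of 0.00251 by edgeR's quasi-likelihood test. Of the 17 members of the body and platform, 6 fell (35.3%) and MRPS34 alone rose (5.88%). Of the 9 members of the head 3 fell (33.3%). Over all tested genes 14.0% fell and 12.7% rose, and within the members' CPM range 18.8% and 15.6%. The 7 falls not described singly, those of MRPL46, MRPL44, MRPL21, MRPL20, MRPL37, MRPS22 and MRPS15, had log2 fold changes between -0.23 and -0.13. All 7 lost their call in the test against a fold of 1.2, and all but MRPL46 under at least 1 other alternative. MRPL37 lost it with DESeq2, MRPL20 and MRPS15 with upper quartile scaling, and MRPL21, MRPS22 and MRPL44 when single libraries were left out.

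**Figure D2:**
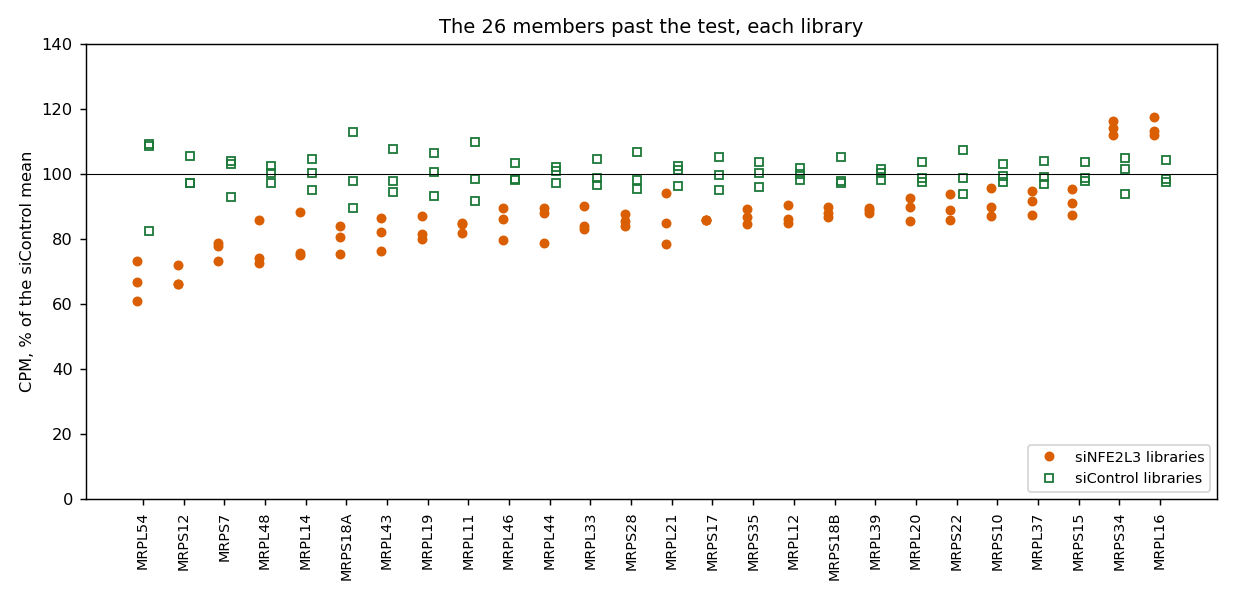
CPM of each of the 26 members past the test in every library, as a percentage of the mean of its siControl libraries, with filled circles for siNFE2L3 and open squares for siControl. The members run from the lowest log2 fold change, MRPL54 at -0.58, to the highest, MRPL16 at 0.19, and the groups do not overlap for any of them.

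To compare levels between genes, counts were divided by the length of the annotated exons (RPKM), a length that also holds rarely used exons. Per length, MRPS10, the homologue of a bacterial protein of the head, and MRPS34 were the most abundant members. MRPS10 had 79.4 ± 3.83 RPKM in siNFE2L3 libraries and 87.5 ± 2.37 RPKM in siControl libraries (SD, n = 3 each), and MRPS34 had 82.4 ± 1.61 and 72.2 ± 4.09 RPKM in the same order. MRPS10 was thus above MRPS34 in siControl libraries, and in siNFE2L3 libraries the values of both genes overlapped. MRPL24, the homologue of a bacterial protein at the exit tunnel, followed with 55.9 ± 2.19 RPKM in siNFE2L3 libraries and 59.1 ± 2.33 RPKM in siControl libraries. MRPL33 had 42.9 ± 1.96 RPKM in siNFE2L3 libraries and 50.1 ± 2.12 RPKM in siControl libraries. It shares 324 of its 1539 exon bases with BRE on the same strand, so its count is uncertain. MRPL39 had 41.2 ± 0.388 RPKM in siNFE2L3 libraries and 46.5 ± 0.820 RPKM in siControl libraries. Of these 5 members, MRPS10, MRPL33 and MRPL39 fell, by 0.14, 0.22 and 0.17 on the log2 scale, MRPS34 rose and MRPL24 had -0.08 (adjusted p 0.201, edgeR). The call of MRPS10 was lost when siNFE2L3 replicate 1 or 2, or siControl replicate 3, was left out, with adjusted p of 0.106, 0.0599 and 0.0576 by edgeR.

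The lowest level per length was that of MRPL23, with 0.988 ± 0.0584 RPKM in siNFE2L3 libraries and 1.14 ± 0.0548 RPKM in siControl libraries. Its counts were 171, 154 and 155 in siNFE2L3 libraries, against 177, 188 and 198 in siControl libraries. The groups did not overlap, but the log2 fold change of -0.20 had an SE of 0.125 and an adjusted p of 0.249 by edgeR. MRPS36, whose protein is now known as a part of the ketoglutarate dehydrogenase complex and not of the ribosome, had 104, 91 and 107 counts in siNFE2L3 libraries, against 99, 137 and 135 in siControl libraries. Its log2 fold change was -0.27 with an SE of 0.162 (adjusted p 0.248, edgeR). A change of that size passed the test in members with more counts, such as MRPL19. Over the members the SE ranged from 0.0411 to 0.162 with a median of 0.0558. The smallest changes were those of MRPS23, MRPL57 and MRPL50, at 0.0022, -0.0041 and -0.0043 on the log2 scale. MRPS30, whose protein sits in the large subunit, had -0.10 and did not pass the test.

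The median changes of the large and the small subunit were close in value. Of the 49 MRPL members 14 fell (28.6%) and 1 rose (2.04%). Of the 29 MRPS members 10 fell (34.5%) and 1 rose (3.45%). Over all tested genes 14.0% fell and 12.7% rose. The median log2 fold change was -0.11 for MRPL and -0.096 for MRPS, a difference of -0.012. Each median varied between libraries of a group, with an SD of 0.0281 for MRPL and 0.0356 for MRPS. These SDs do not measure the spread of the difference, because both classes were counted in the same libraries. The difference was not tested. When members were placed by where their protein sits in the human ribosome, 15 of 51 large-subunit members fell and 1 rose, and 9 of 26 small-subunit members fell and 1 rose. Members with a bacterial homologue numbered 48, with 15 lower and 1 higher and a median of -0.11. Mitochondria-specific members numbered 29, with 9 lower and 1 higher and a median of -0.096.

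The summed level of the 49 MRPL members was 1390, 1424 and 1422 CPM in siNFE2L3 libraries, against 1467, 1527 and 1536 CPM in siControl libraries, 93.5% of the siControl mean. That of the 29 MRPS members was 1408, 1468 and 1446 CPM in siNFE2L3 libraries, against 1496, 1532 and 1585 CPM in siControl libraries, 93.7% of the siControl mean. Both sums were lower in every knockdown library than in any control library. The ratio of the MRPL sum to the MRPS sum was 0.987, 0.970 and 0.984 in siNFE2L3 libraries, against 0.981, 0.997 and 0.969 in siControl libraries, and the groups overlapped.

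**Figure D3:**
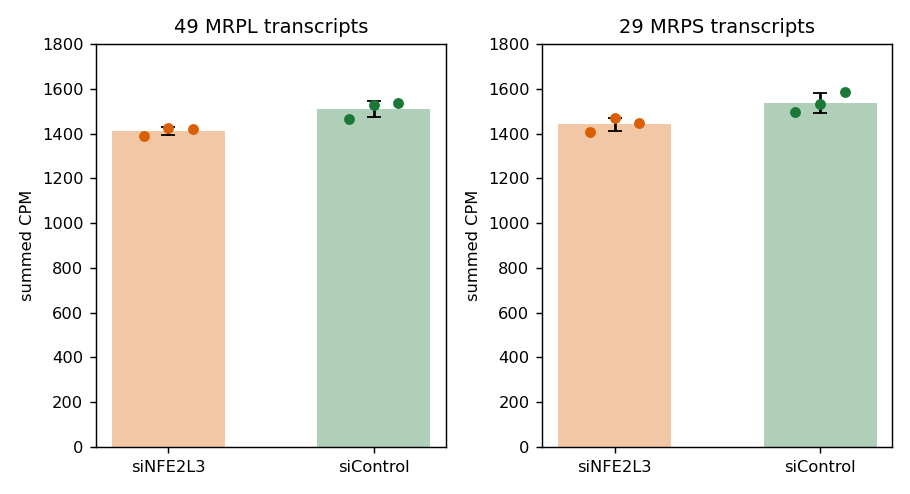
Summed CPM of the 49 MRPL transcripts (left) and the 29 MRPS transcripts (right), with points for the libraries, bars for the mean and error bars for the SD (n = 3 each). The siNFE2L3 sums stand at 93.5% and 93.7% of the siControl means.

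Most members lay slightly below 0. The quartiles of the log2 fold change were -0.19 and -0.012 over the members, against -0.15 and 0.17 over all tested genes and -0.14 and 0.12 over the genes within the same CPM range. The highest log2 fold change of any member was 0.19, and the lowest was -0.58. These values describe the members, and no test was made of the list as a whole.

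**Figure D4:**
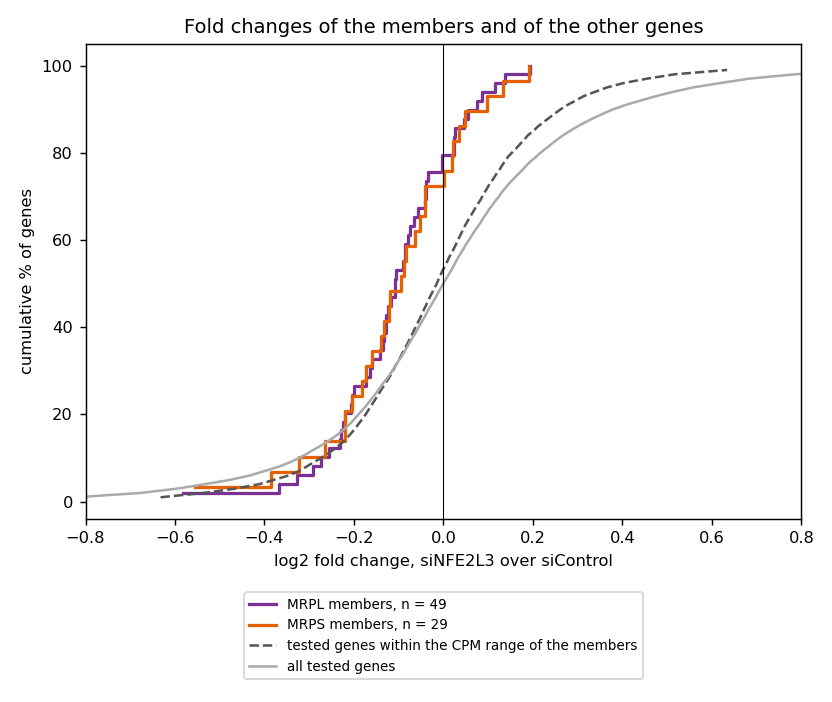
Cumulative percentage of genes by log2 fold change of siNFE2L3 over siControl, for the 49 MRPL members, the 29 MRPS members, the 12808 tested genes within their CPM range and all 19916 tested genes (from the quantiles at 1% to 99%). The curves of both subunits run together and reach 100% at 0.19, where the other curves still climb.

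Of the 78 members, 40 share exon bases with another annotated gene on either strand. Among the 38 that share none, 9 fell (23.7%) and 2 rose (5.26%), with a median log2 fold change of -0.090. In this set 5 of 26 MRPL members (19.2%) and 4 of 12 MRPS members (33.3%) fell. Over all tested genes 14.0% fell and 12.7% rose, and within the members' CPM range 18.8% and 15.6%. The MRPL share of falls was thus near that of genes in the same CPM range, which were not filtered for shared exon bases. Of the same 26 MRPL members 1 rose (3.85%). Their median was -0.088, against -0.015 over the genes in that range. Of the 73 annotated pseudogenes of the members, 3 were counted at 1% or more of the level of their parent. MRPS31P4 and MRPS31P5 had 51.1% and 39.9% of the CPM of MRPS31, and MRPL42P4 had 3.39% of that of MRPL42, so these parents are uncertain. Neither MRPS31 nor MRPL42 passed the test.

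Many members start close to another gene that is transcribed in the opposite direction. Tested genes of this kind, with start sites at most 1000 bases apart by the annotation, were found for 30 members, in 30 pairs. The 2 genes had the same sign in 18 pairs and opposite signs in 12. Of the neighbours, 6 were lower and 2 higher at an adjusted p under 0.05 (edgeR), beside 14.0% and 12.7% of all tested genes. In 3 pairs both genes passed the test, in the same direction. No test was made of whether pairs move together. SARS2, the mitochondrial seryl-tRNA synthetase gene that starts 348 bases from MRPS12, had 1.33 CPM in siNFE2L3 libraries and 2.35 CPM in siControl libraries on average. SARS2 fell by 0.83 on the log2 scale (SE 0.163, adjusted p 3.87e-04, edgeR). The exons of SARS2 and MRPS12 share 349 bases, so reads of this pair could not be told apart there. TMEM63B, beside MRPL14, fell by 0.31 (adjusted p 9.93e-05, edgeR), and EME2, beside MRPS34, rose by 0.24 (adjusted p 0.00696, edgeR). The start sites of MRPL46 and MRPS11, a large and a small subunit gene, lie 34 bases apart, and MRPL46 fell by 0.23 while MRPS11 had -0.12 (adjusted p 0.0852, edgeR). Not all pairs moved together. EME1, 6 bases from MRPL27, rose by 0.30 (adjusted p 8.36e-05, edgeR), while MRPL27 had -0.13 and did not pass the test. APBA3, beside MRPL54, had 0.06 and C10orf2, beside MRPL43, had 0.08, and neither passed the test.

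**Figure D5:**
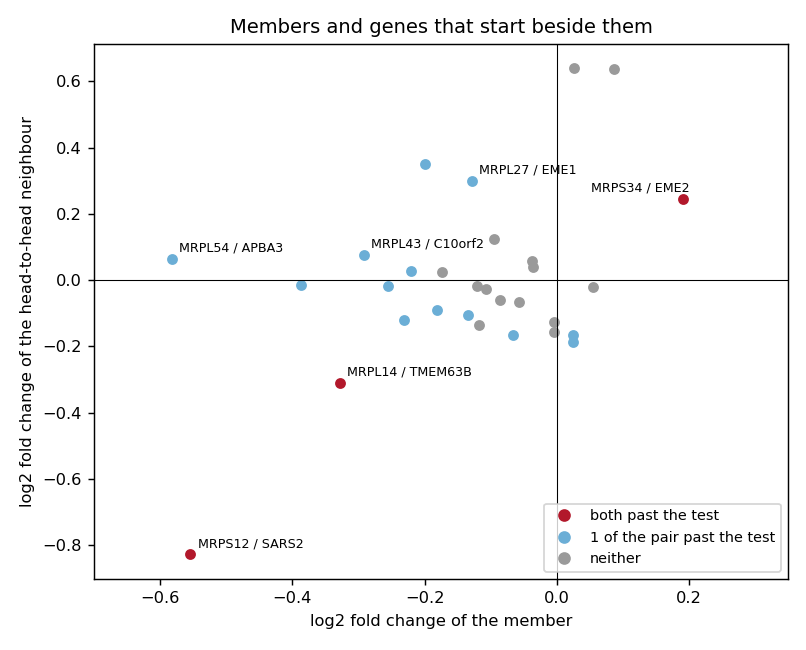
Log2 fold change of the neighbour (vertical) against that of the member (horizontal) for the 30 pairs of genes with start sites at most 1000 bases apart, both siNFE2L3 over siControl. The 3 red pairs, in which both passed the test, lie in the quadrants of equal sign.

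The rest of the machinery for mitochondrial gene expression was set beside the members. The shares of each list below stand beside 14.0% lower and 12.7% higher over all tested genes. Within the members' CPM range 18.8% fell and 15.6% rose, so several lists lay near these shares. Of 5 mitoribosomal proteins with other names, CHCHD1 fell, by 0.16 on the log2 scale (adjusted p 0.0449, edgeR), a call that DESeq2 did not make. Of 29 genes for assembly of the ribosome and modification of its RNA, 4 fell (13.8%) and 2 rose (6.90%), with a median of -0.042. NGRN, needed for the large rRNA, had 133.7, 126.9 and 129.0 CPM in siNFE2L3 libraries, against 155.3, 163.3 and 160.4 CPM in siControl libraries, and fell by 0.30. AFG3L2, a subunit of the inner membrane protease that matures MRPL32, rose by 0.18. MRPL32 itself had 0.02 and did not pass the test.

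Of 16 mitochondrial translation factors, 5 fell (31.25%) and 1 rose (6.25%), with a median of -0.078. MTIF2, the initiation factor, fell by 0.26, and the elongation and recycling factors GFM1 and GFM2 fell by 0.22 and 0.18. Of 11 genes for maintenance and transcription of mitochondrial DNA, 2 rose (18.2%), TOP1MT by 0.28 and POLG2 by 0.21. Of 20 genes for import of proteins with a presequence, 2 fell and 4 rose, with TOMM22, a receptor of the outer membrane, at 0.34. Of 12 regulators of nuclear genes for mitochondria, 2 fell (16.7%) and 2 rose (16.7%), near the shares over all tested genes. CREB1 fell by 0.30 and GABPB2, a subunit of the ETS factor GABP, by 0.26, while the other GABP subunits, GABPA and GABPB1, had -0.02 and -0.05 and did not pass the test. PPRC1, a coactivator, rose by 0.21 (adjusted p 0.00274, edgeR) and YY1 rose by 0.14 (adjusted p 0.0155, edgeR).

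Counts of the mitochondrial rRNAs and mRNAs did not all move with those of the ribosomal proteins. The paper's methods enriched mRNA with oligo(dT) beads before sequencing. The rRNA counts therefore depend on that capture and may not measure the rRNA that ribosomes hold. MT-RNR2, the rRNA of the large subunit, had 11130, 10860 and 11060 CPM in siNFE2L3 libraries, against 10290, 9590 and 9851 CPM in siControl libraries, and rose by 0.15 on the log2 scale (SE 0.0362, adjusted p 0.00246, edgeR). MT-RNR1, the rRNA of the small subunit, had -0.05 (adjusted p 0.386, edgeR). Its mean level was far lower, 188.8 CPM in siNFE2L3 libraries and 195.2 CPM in siControl libraries. Of the 13 mRNAs of the mitochondrial genome, MT-CO2 fell by 0.11 and MT-CYB rose by 0.11, calls that were both lost with the replicate number as a block, and the summed level of the 13 stood at 99.7% of siControl. Of 85 tested proteins of the cytosolic ribosome, 16 fell (18.8%) and 0 rose, with a median of -0.065. Their log2 fold changes were below 0 for 67 and above 0 for 18, so these too lay mostly below 0. Of 38 genes picked by the name pattern of nuclear complex I subunits, 9 fell (23.7%) and 4 rose (10.5%), with a median of -0.055. Their summed level was 1963, 2018 and 1947 CPM in siNFE2L3 libraries, against 2082, 2121 and 2145 CPM in siControl libraries, 93.4% of the siControl mean and so as low as the sums of MRPL and MRPS.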

How the data were processed

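RNA-seq was analysed from 3 siNFE2L3 and 3 siControl libraries. The methods and the processing notes name Trimmomatic 0.36 for trimming, a consensus step over molecular identifiers, STAR 2.5.3a for alignment and featureCounts of Subread 1.5.1 for counting. The values that the authors deposited are raw counts per gene with exon lengths, on the Ensembl 87 annotation of GRCh38. The strand setting and the treatment of read mates were not given in the sources used here. Between 67.6% and 69.9% of the counts under 30 were even.

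Genes were tested with edgeR 4.0.16 (limma 3.58.1, R 4.3.3) by TMM scaling, filterByExpr at a minimum count of 10, a quasi-likelihood F test of the 6 libraries with no covariate, and Benjamini-Hochberg adjustment over the 19916 genes kept. The biological coefficient of variation was 4.76%. CPM and RPKM used TMM-scaled totals. DESeq2 1.42.0 and other scalings, filters and sets of libraries were run as alternatives. Replicates of a group differed by more than sampling noise.

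Members and gene lists were chosen with earlier results of these data known, and the search for motifs and neighbours was added after the members' values were seen. Sites in the ribosome were assigned from general knowledge. Named were, per name class and direction, the 6 members with the largest change past the test and no overlap, the 3 most and the 1 least abundant per length, the S18 copies, MRPS30, MRPS36 and the 3 smallest changes. From each list of other genes the 3 with the smallest p could be named. MRPL2, MRPL3, MRPL4, MRPL10, MRPL12, MRPL15, MRPL20, MRPL21, MRPL27, MRPL32, MRPL37, MRPL42, MRPL44, MRPL46, MRPL53, MRPL55, MRPS11, MRPS15, MRPS22 and MRPS31, the neighbours, YY1, GABPA and GABPB1 were named after their values were seen. Promoter sequences are from RefSeq.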

Additional observations from a re-analysis of the deposited data

How the results depend on the processing

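Of the 24 falls, 24 kept their call with RLE size factors, with library totals only, with a minimum of 10 counts per library and with counts halved, 23 with no filter and with DESeq2 and 21 with upper quartile scaling. With the replicate block 21 of the 24 kept it (MRPL20, MRPS15 and MRPL37 did not), and 2504 genes were lower and 2278 higher over all genes. Same-numbered libraries of the 2 groups did not deviate together (correlations over genes of -0.0147, -0.0482 and -0.0199), so the number was not taken as a pairing. Leaving out 1 library left between 18 (without siNFE2L3 replicate 1) and 24 (without siControl replicate 1) of the falls. It gave 1 to 3 rises among all members and 0 to 2 among MRPL members, with 1 and 0 without siNFE2L3 replicate 3, where MRPL16 lost its call, and 3 and 2 without siControl replicate 2, where MRPL15 rose as well. Of the 26 calls, 17 were kept under all 14 of these alternatives. Among members that share no exon base, a set of fewer genes, 5 MRPL (19.2%) and 4 MRPS members (33.3%) fell. Over all members of each class these shares were 28.6% and 34.5%.

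Tested against a fold of 1.2, 451 genes were lower and 428 higher, and of the members 1 MRPS member (MRPS12) was lower, 0 MRPL members were lower and 0 members of either class were higher. The sign of the smallest changes turned. MRPS23 had -0.0096 with library totals and -0.0019 with no filter, and -0.0212 to 0.0298 as each library was left out. MRPL57 had 0.0164 with upper quartile scaling and -0.0543 to 0.0771 as each library was left out, and MRPL50 had 0.0155 and -0.0659 to 0.0879. The cause of these changes was not tested. The median of all genes moved between -0.0125 and 0.0193 on the log2 scale and that of the members between -0.125 and -0.0827. Members with the fewest counts had standard errors of up to 0.162, which limits what could be detected.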
